A study of Homo sapiens with 8 samples.

Results

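For each expressed gene, the effect of doxycycline (dox) in U937 cells with an inducible SLC7A2 was set against its effect in U937 cells with an inducible SLC7A1. The quantity is (dox minus no dox in tet-SLC7A2) minus (dox minus no dox in tet-SLC7A1), on a log2 scale, and is called the difference below. A positive difference means that a gene stood higher after dox in tet-SLC7A2 than its dox effect in tet-SLC7A1 would give. It was taken over all 8 libraries and described for 11573 genes with an Entrez number that passed a filter on low counts, of 15386 such genes listed in any library. Of the 11573 genes, 8597 had a mean level of at least 3 on the log2 CPM scale (CPM, counts relative to library size, scaled by TMM). U937 is a human monocytic cell line, and both lines here lacked SLC19A1 (SLC19A1-/-), so the controls carried that deletion too. Each line carried a tet-controlled, Flag-tagged transporter. The groups were tet-SLC7A1 no dox, tet-SLC7A1 dox, tet-SLC7A2 no dox and tet-SLC7A2 dox, with 2 libraries in each, and dox was given at 1 µg/mL for 24 h. The labels do not say whether a line is a single clone, nor whether numbered libraries came from separate cultures, so p-values measure the spread between these libraries, which may be technical. Dox-treated cells without a construct were not among the samples, and an effect of dox itself leaves the difference only where it is equal in both lines.

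SLC7A1 and SLC7A2 encode CAT-1 and CAT-2, plasma membrane transporters for arginine, lysine and ornithine. SLC7A1 is the widely expressed carrier, while SLC7A2 is known from liver and from activated macrophages, where its arginine supply feeds nitric oxide synthesis and arginase. Arginine is also read by the mTORC1 growth pathway, and shortage of amino acids turns on the ATF4 programme of amino acid synthesis and import. Dox, the inducer, can hinder translation on mitochondrial ribosomes.

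Same-numbered libraries of a line were treated as a pair, so each line gave 2 values of dox minus no dox, here called pair effects. A gene was called separated when both pair effects of one line lay above both of the other. It was called opposite when both pairs of one line were above 0 and both of the other below 0. Libraries held 17309132 to 18441833 expected counts, and a floor of 3 counts came to between 0.163 and 0.173 CPM. On the first principal component of all libraries (27.3% of the variance) the tet-SLC7A2 libraries numbered 2 stood apart, with scores of 55.6 (no dox) and 67.0 (dox), while the remaining 6 libraries scored between -53.0 and -3.1. On the second component (16.1%) the tet-SLC7A1 libraries 1 scored 30.2 (no dox) and 44.6 (dox), and its libraries 2 scored -41.9 and -32.5. Leaving out 1 pair at a time moved the difference of some named genes by over 1.5 times, or turned its sign. This held for 60 of the 102 named genes in at least 1 of the 4 omissions. It held for 27 and 27 genes without tet-SLC7A1 pairs 1 and 2, and for 25 and 32 without tet-SLC7A2 pairs 1 and 2. Values without a pair are given below for a part of them.

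The constructs themselves differed between the pairs. The entry for the tagged SLC7A1 was at 844.5 and 366.5 CPM of the library total in the tet-SLC7A1 dox libraries 1 and 2, and at 0.264 and 0 CPM without dox. The entry for the tagged SLC7A2 was at 264.0 and 4947 CPM in the tet-SLC7A2 dox libraries 1 and 2, against 0.563 and 9.65 CPM without dox. Induction was thus seen in all 4 dox libraries, but its level in tet-SLC7A2 pair 2 was far above that in pair 1. In RNA from many cells, a larger share of induced cells and more RNA in each cannot be told apart. The untagged SLC7A2 gene was at 0 in 7 libraries, and the remaining one held 1 count. SLC7A1 itself (chromosome 13, bases 29509414 to 29595688 in RefSeq GRCh38.p14) was at 75.9 and 73.3 CPM without and 132 and 97.1 CPM with dox in tet-SLC7A1, and at 60.3 and 75.3 CPM without and 65.8 and 94.4 CPM with dox in tet-SLC7A2. Its difference was -0.37 ± 0.17 (SE), and reads of the construct and the gene may be shared between these entries. The knocked-out SLC19A1 still gave 124 to 160 CPM in the 8 libraries, with a difference of -0.05 ± 0.17. The labels do not say which part of SLC19A1 was altered, so its transcript level does not check the knockout.

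Across the whole table no difference passed. In the edgeR quasi-likelihood fit with pairs, 0 of 17503 entries (0%) had an adjusted p under 0.05, and 519 had an unadjusted p under 0.05. Among the Entrez genes 189 (1.63%) had an unadjusted p under 0.05. DESeq2 with the same pairs called 21 entries, 13 higher and 8 lower, of which 4 were Entrez genes (0.0346%) and 17 were assembled loci with no symbol. The 4 genes were NFAT5, TASOR and IFT80, with a positive difference, and TESMIN, with a negative one. In edgeR each of these 4 had an adjusted p of 1, so they are calls of DESeq2 alone.

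TASOR encodes a subunit of the HUSH complex, which silences integrated and repeated DNA, and lies on chromosome 3 (bases 56620132 to 56683265, GRCh38.p14). It was at 28.9 and 44.4 CPM without and 24.4 and 51.9 CPM with dox in tet-SLC7A1. In tet-SLC7A2 it was at 28.1 and 48.1 CPM without and 53.6 and 96.5 CPM with dox. The tet-SLC7A2 pair effects were close to each other (0.93 and 1.00), while the tet-SLC7A1 pairs lay at -0.24 and 0.22. The difference was 0.97 ± 0.19 (SE; DESeq2 adjusted p 0.0153). With libraries corrected for transcript length and GC content it was 0.72.

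IFT80, a component of the intraflagellar transport machinery of cilia, lies on chromosome 3 (bases 160256986 to 160399225). It was at 5.74 and 7.83 CPM without and 3.31 and 6.70 CPM with dox in tet-SLC7A1. In tet-SLC7A2 it was at 0.912 and 0.267 CPM without and 7.25 and 7.47 CPM with dox. The libraries that stood apart were therefore the tet-SLC7A2 no dox pair, while the tet-SLC7A2 dox pair lay within the range of tet-SLC7A1. The fitted difference was 4.24 ± 0.64 (DESeq2 adjusted p 8.9e-05). IFT80 overlaps a readthrough transcript with its neighbour TRIM59 in RefSeq, and the sources used here do not give how reads were shared between them.

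NFAT5, the transcription factor of the response to high salt, was at 6.37 and 7.83 CPM without dox in tet-SLC7A1 and at 0 and 0.225 CPM with it. In tet-SLC7A2 it was at 3.54 and 9.14 CPM without and 2.61 and 3.33 CPM with dox. The low group here was tet-SLC7A1 dox, and pair effects were below 0 in all 4 pairs. The fitted difference was 5.03 (DESeq2 adjusted p 0.00801). TESMIN, a metallothionein-like protein known from the testis, was at 1.04 and 1.14 CPM without and 3.42 and 1.58 CPM with dox in tet-SLC7A1, against 5.36 and 1.23 CPM without and 0.174 and 0 CPM with dox in tet-SLC7A2. Its fitted difference was -6.40 (DESeq2 adjusted p 0.0124). For both genes a group lay at or near 0, so the fitted value depends on the prior count and is no bound.

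**Figure D1:**
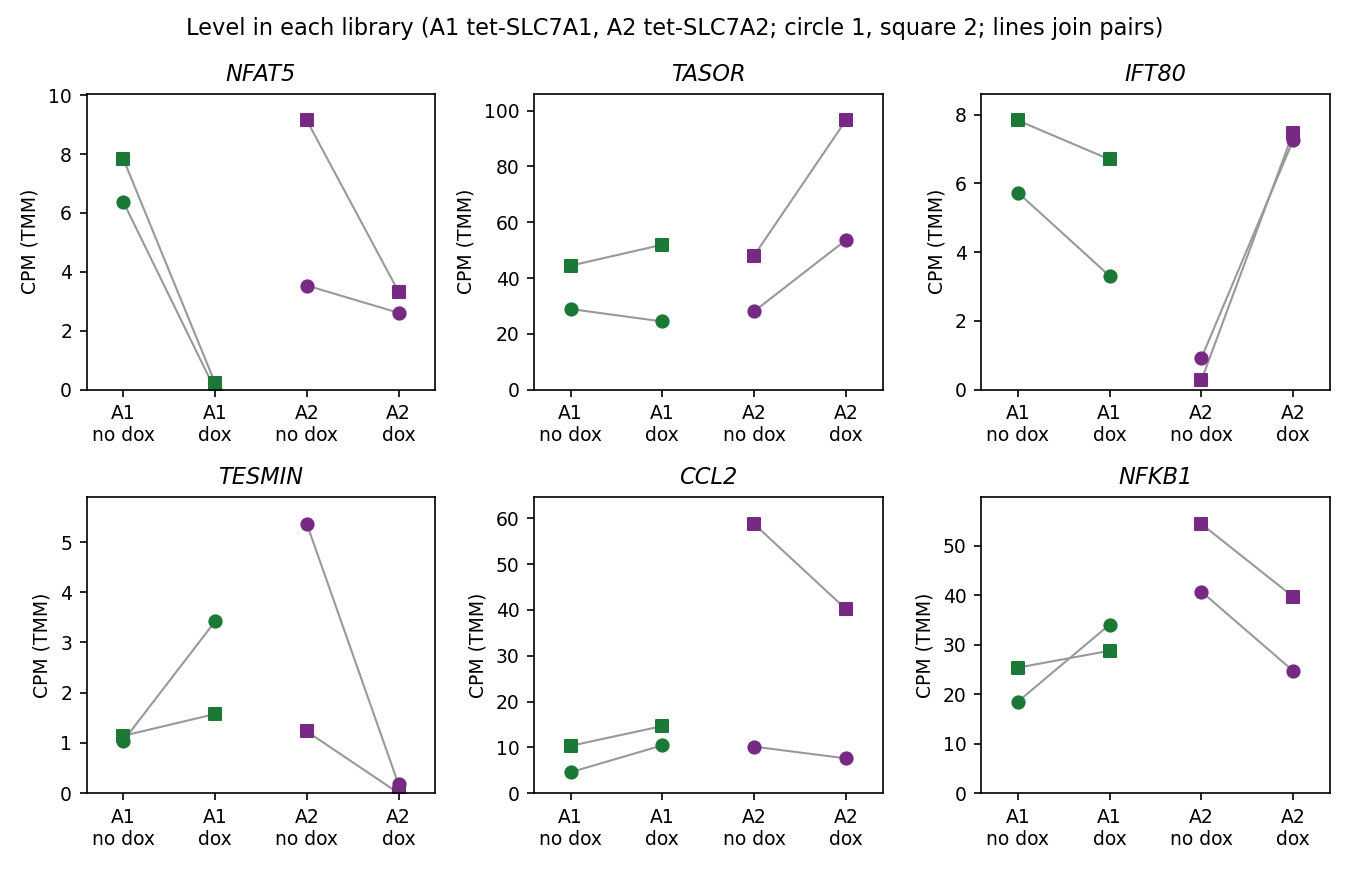
Level in each library, in TMM-scaled CPM from 0, of the 4 Entrez genes called by DESeq2 and of CCL2 and NFKB1. Circles are libraries numbered 1, squares those numbered 2, green is tet-SLC7A1, purple is tet-SLC7A2 and lines join a pair: IFT80 starts low in tet-SLC7A2 without dox (0.912 and 0.267 CPM), NFAT5 ends near 0 in tet-SLC7A1 with dox, and the pair lines of CCL2 and NFKB1 slope up in tet-SLC7A1 and down in tet-SLC7A2.

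Pairs of a line resembled each other little. Over the 8597 genes at level 3 or more, Pearson's r between the pair effects was 0.01 for tet-SLC7A1 and 0.04 for tet-SLC7A2. Between lines it was 0.39 for tet-SLC7A1 pair 1 with tet-SLC7A2 pair 2, -0.27 for tet-SLC7A1 pair 2 with tet-SLC7A2 pair 2, 0.20 for pair 1 of each line and 0.07 for tet-SLC7A1 pair 2 with tet-SLC7A2 pair 1. With libraries corrected for length and GC content, r was 0.13 within tet-SLC7A1 and 0.06 within tet-SLC7A2. The between-line values were then 0.34, -0.06, 0.195 and 0.08, in the same order. These correlations are across genes, which are not independent, and are given as a description. The pairs also differed in spread: the middle 50% of genes spanned 0.16 in tet-SLC7A2 pair 1, 0.22 and 0.26 in the tet-SLC7A1 pairs 2 and 1, and 0.34 in tet-SLC7A2 pair 2. As counted, the widest spread was in the pair with the most construct RNA, which is also the pair that stood apart. These cannot be told apart with 1 such pair. With libraries corrected for length and GC content, the span was 0.25 in tet-SLC7A2 pair 2 and 0.24 in tet-SLC7A1 pair 1. It was then 0.18 in tet-SLC7A1 pair 2 and 0.15 in tet-SLC7A2 pair 1. The median SE of a difference was 0.16 at level 3 or more, 0.24 at levels 3 to 4 and 0.12 at 7 or more. Only 27 of the 8597 genes had a difference past 1 in size, 17 of them positive and 10 negative.

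**Figure D2:**
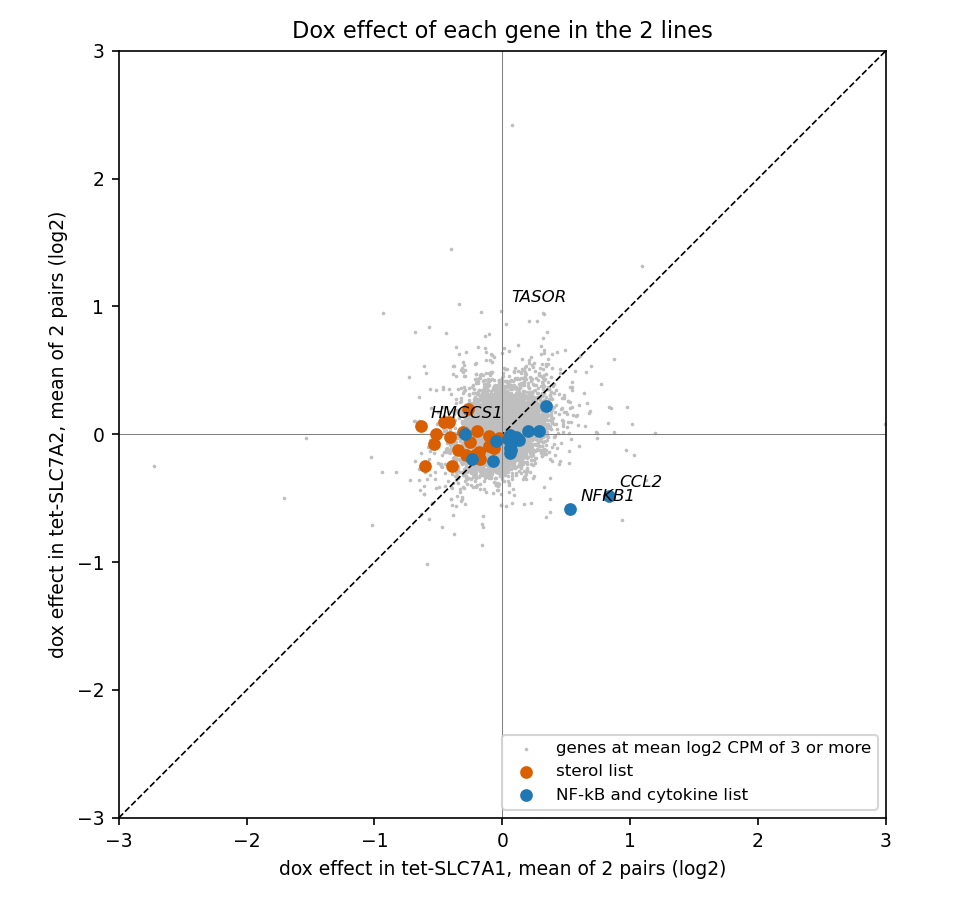
Dox effect in tet-SLC7A2 (vertical) against that in tet-SLC7A1 (horizontal), each the mean of 2 pairs on a log2 scale, for 8597 genes, of which 5 lie outside the axes. The dashed line marks equal effects: most sterol genes (orange) lie left of it, and CCL2 and NFKB1 (blue) lie far right of it.

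The difference followed transcript length and GC content. Over the 8597 genes it had a Spearman correlation of 0.34 with length and -0.43 with GC content. In 5 groups of equal size from the shortest to the longest transcripts, the median difference ran -0.10, -0.06, -0.01, 0.03 and 0.07. In 5 such groups from the lowest to the highest GC content it ran 0.13, 0.03, -0.04, -0.08 and -0.10. The pairs did not share this slope: with GC content the pair effects had a Spearman correlation of -0.54 in tet-SLC7A2 pair 2 and 0.36 in tet-SLC7A1 pair 2, against -0.18 and 0.09 in the pairs numbered 1. Tet-SLC7A1 pair 2 and tet-SLC7A2 pair 2 therefore sloped in opposite directions. Whether this comes from the cells or from the libraries was not tested. A corrected value, with each library adjusted for length and GC content, stands beside a part of the results below. A result given without one may also change with the correction.

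**Figure D3:**
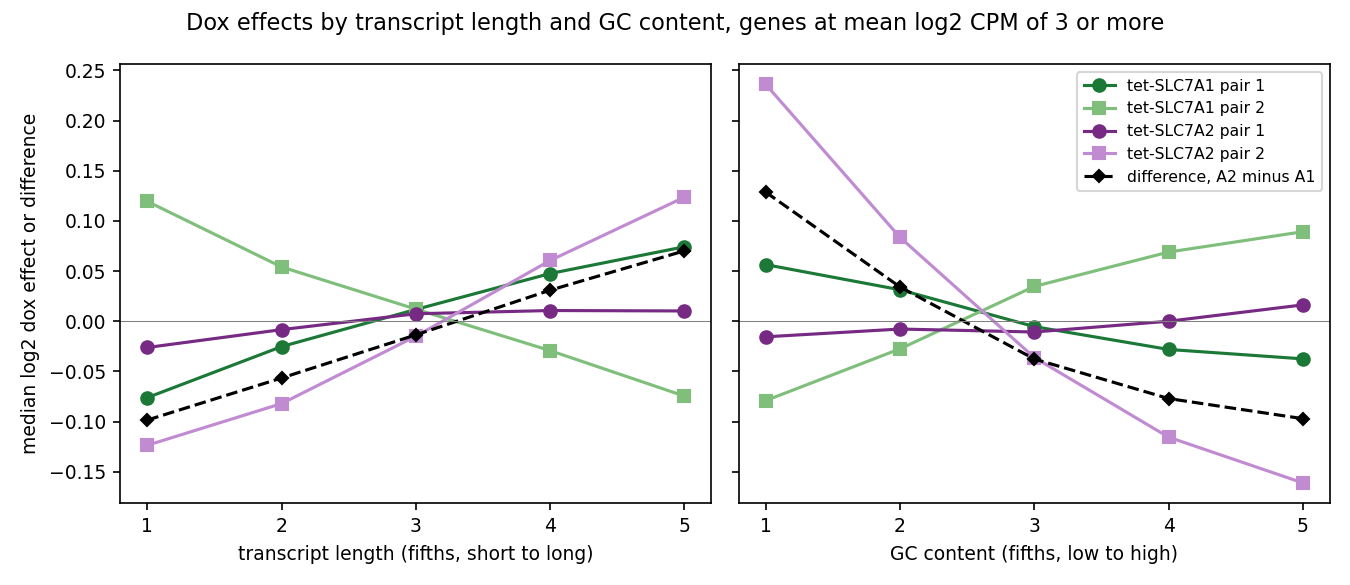
Median log2 pair effect (coloured lines) and median difference (dashed) in 5 groups of equal size by transcript length, left, and GC content, right, for genes at a mean log2 CPM of 3 or more. The difference runs from -0.10 to 0.07 with length and from 0.13 to -0.10 with GC content, and the steepest line is tet-SLC7A2 pair 2.

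Over all Entrez genes 1545 were separated with tet-SLC7A2 above (13.4%) and 1919 with tet-SLC7A2 below (16.6%). At level 3 or more these were 992 (11.5%) and 1506 (17.5%). The former had a median length of 3871 bases and a GC content of 44.7%, the latter 2364 bases and 54.8%, against 2926 bases and 50.6% for all genes at that level. The separated genes thus differed from one another in length and GC content in the direction of the slopes above. They also differed in level, with median log2 CPM of 4.485 and 5.73. From the lowest to the highest of 5 groups by level, the share separated with tet-SLC7A2 above ran from 20.3% to 4.3%. The share with it below ran from 12.15% to 21.7%. The corrections covered length and GC content and not level.

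The 12 separated genes with the highest difference ran from 2.87 to 1.09. KIF13B, a kinesin, came first at 2.87, but it was at 0 CPM in the tet-SLC7A1 dox library 2 and at 14.4 CPM in library 1, and that value rests on the library at 0. APOOL, a protein of the mitochondrial inner membrane, had 2.07, and it was at 0.684 CPM in the tet-SLC7A2 no dox library 1 against 7.11 to 13.2 CPM in the other 7. ARFGEF2 (1.96), a factor of Golgi vesicle traffic, had pair effects of 0.43 and -2.31 in tet-SLC7A1 against 0.97 and 0.92 in tet-SLC7A2. The order of the leading genes thus turned on single libraries.

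VPS13A, a lipid transfer protein at contacts between organelles, differed in another way. It was at 9.79 and 16.4 CPM without and 3.92 and 4.73 CPM with dox in tet-SLC7A1, against 12.8 and 11.7 CPM without and 11.8 and 12.1 CPM with dox in tet-SLC7A2. Its pair effects were -1.29 and -1.77 in tet-SLC7A1 and -0.12 and 0.05 in tet-SLC7A2, so the difference of 1.53 ± 0.26 (DESeq2 adjusted p 0.0809) came from the tet-SLC7A1 line. GNA13, a G protein alpha subunit, was at 18.4 and 23.2 CPM without and 16.2 and 10.1 CPM with dox in tet-SLC7A1, and at 6.84 and 16.4 CPM without and 11.1 and 31.0 CPM with dox in tet-SLC7A2. Here both lines took part, in opposite directions, with a difference of 1.50 ± 0.36. Without tet-SLC7A1 pair 2 GNA13 had 1.00. The other members were POLQ (1.79), a DNA polymerase of end joining, PTPRJ (1.43), a receptor phosphatase, PPP3CA (1.20), the catalytic subunit of calcineurin, SWAP70 (1.20), an actin-linked exchange factor, TNRC6A (1.14), a partner of Argonaute, SDK1 (1.12), a cell adhesion molecule, and ATRX (1.09), a chromatin remodeller. Several of these also turned on 1 pair. Without tet-SLC7A2 pair 1 POLQ had 0.93 and SWAP70 0.50, and without tet-SLC7A2 pair 2 PPP3CA had 0.71. Without tet-SLC7A1 pair 1 TNRC6A had 0.68, and without tet-SLC7A1 pair 2 SDK1 had 0.74. VPS13A, PTPRJ and ATRX stayed within 1.5 times their value in each omission. The next gene, INVS, had 1.06. The 12 genes had a median length of 7874 bases and a GC content of 43.9%.

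The 12 separated genes with the lowest difference ran from -2.08 to -0.75. DIP2B came first at -2.08, but it was at 0 CPM in the tet-SLC7A2 dox library 1 against 4.40 to 24.7 CPM in the other 7. DCAF8 (-1.41), a substrate adaptor of a ubiquitin ligase, was low in the tet-SLC7A1 no dox library 2 alone, at 4.03 CPM against 13 to 21.3 CPM. ANGEL1 (-1.38) was likewise at 1.27 CPM in the tet-SLC7A1 no dox library 1. The values of these 3 genes thus rest on single libraries.

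CCL2, the chemokine that draws monocytes, and NFKB1, the p105 and p50 subunit of NF-kB, did not rest on a single low library in this way. CCL2 was at 4.58 and 10.3 CPM without and 10.4 and 14.6 CPM with dox in tet-SLC7A1, and at 10.2 and 58.8 CPM without and 7.60 and 40.2 CPM with dox in tet-SLC7A2. Its pair effects were 1.17 and 0.50 in tet-SLC7A1 and -0.41 and -0.55 in tet-SLC7A2, with a difference of -1.30 ± 0.26 (DESeq2 adjusted p 0.062). Without tet-SLC7A2 pair 2 it was -1.24. NFKB1 was at 18.5 and 25.3 CPM without and 34 and 28.8 CPM with dox in tet-SLC7A1, and at 40.7 and 54.4 CPM without and 24.7 and 39.7 CPM with dox in tet-SLC7A2. Before dox the tet-SLC7A2 libraries lay above those of tet-SLC7A1, and with dox the lines overlapped. The difference was -1.11 ± 0.26 (DESeq2 adjusted p 0.0674), and -1.24 without tet-SLC7A2 pair 2. For NFKB1 it was -0.77 without tet-SLC7A1 pair 1 and -1.47 without tet-SLC7A1 pair 2, so its size turned more on the tet-SLC7A1 pairs. Neither gene passed in either tool.

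Of the other low members, TMEM50B (-1.07), MAP3K6 (-0.93), a kinase of the stress MAP kinase cascades, HK3 (-0.85), a hexokinase of myeloid cells, and CAPN15 (-0.77) had mean effects near 0 in tet-SLC7A2 and effects of 0.74 to 1.08 in tet-SLC7A1. PDPK1 (-0.98), the kinase that activates AKT, and TRAPPC14 (-0.75), a vesicle tethering subunit, had both tet-SLC7A1 pairs above 0 and both tet-SLC7A2 pairs below. ZZEF1 (-0.97) was low in the tet-SLC7A2 dox library 2 alone, at 8.24 CPM against 16.1 to 24.2 CPM in the other 7. Without tet-SLC7A1 pair 1 TMEM50B had -0.58 and MAP3K6 -0.60, and without tet-SLC7A1 pair 2 CAPN15 had -0.35. Without tet-SLC7A2 pair 1 PDPK1 had -0.51 and HK3 -0.53, and without tet-SLC7A2 pair 2 ZZEF1 had -0.285. TRAPPC14 had -0.77 to -0.74 over the 4 omissions. The next gene, KIAA0232, had -0.73.

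Opposite pairs were found for 326 genes up in tet-SLC7A2 and down in tet-SLC7A1 (3.79% of the 8597) and for 489 the other way (5.69%). Ranked by the smallest of the 4 pair effects in size, INVS led the former. INVS, the inversin of the ciliary base, was at 10.4 and 13.4 CPM without and 7.91 and 10.6 CPM with dox in tet-SLC7A1, and at 8.10 and 7.27 CPM without and 13.7 and 11.2 CPM with dox in tet-SLC7A2. Its pair effects of -0.40, -0.33, 0.75 and 0.62 gave a difference of 1.06 ± 0.21. ACAD11, an acyl-CoA dehydrogenase, followed the same pattern with 0.77 ± 0.18, from 25.1 and 24.7 to 18.1 and 19.2 CPM in tet-SLC7A1 and from 16.7 and 9.41 to 19.5 and 13.2 CPM in tet-SLC7A2. GOLGA1, a golgin (0.69), and TTLL3, a tubulin glycylase (0.64), also had close pair effects within each line.

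In the other direction TRAPPC14 had close values within each line. Its pair effects were 0.53 and 0.51 in tet-SLC7A1 and -0.23 and -0.22 in tet-SLC7A2, and its levels were 10.7 and 9.30 CPM before and 15.5 and 13.3 CPM after dox in the former, and 13.1 and 15.8 CPM before and 11.1 and 13.6 CPM after in the latter. NAB2 (-0.48), a repressor of EGR factors, CAMSAP1 (-0.46), a microtubule minus-end protein, and HYLS1 (-0.38), a centriole protein, made up the list with CCL2, NFKB1, DCAF8 and PDPK1. None of these had an edgeR adjusted p below 1.

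Gene lists were described by the number of members on each side of 0 and by their median difference, beside a median of -0.01 over all 11573 genes, of which 47.5% lay above 0. Of these genes 13.4% were separated with tet-SLC7A2 above and 16.6% with it below. Between 5632 and 6152 of them had an effect above 0 in a given pair. Counts of list members below are to be read against these shares. No member of any of the 41 lists with genes past the filter was called by edgeR. The lists and the genes were picked with earlier results of these data known.

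**Figure D4:**
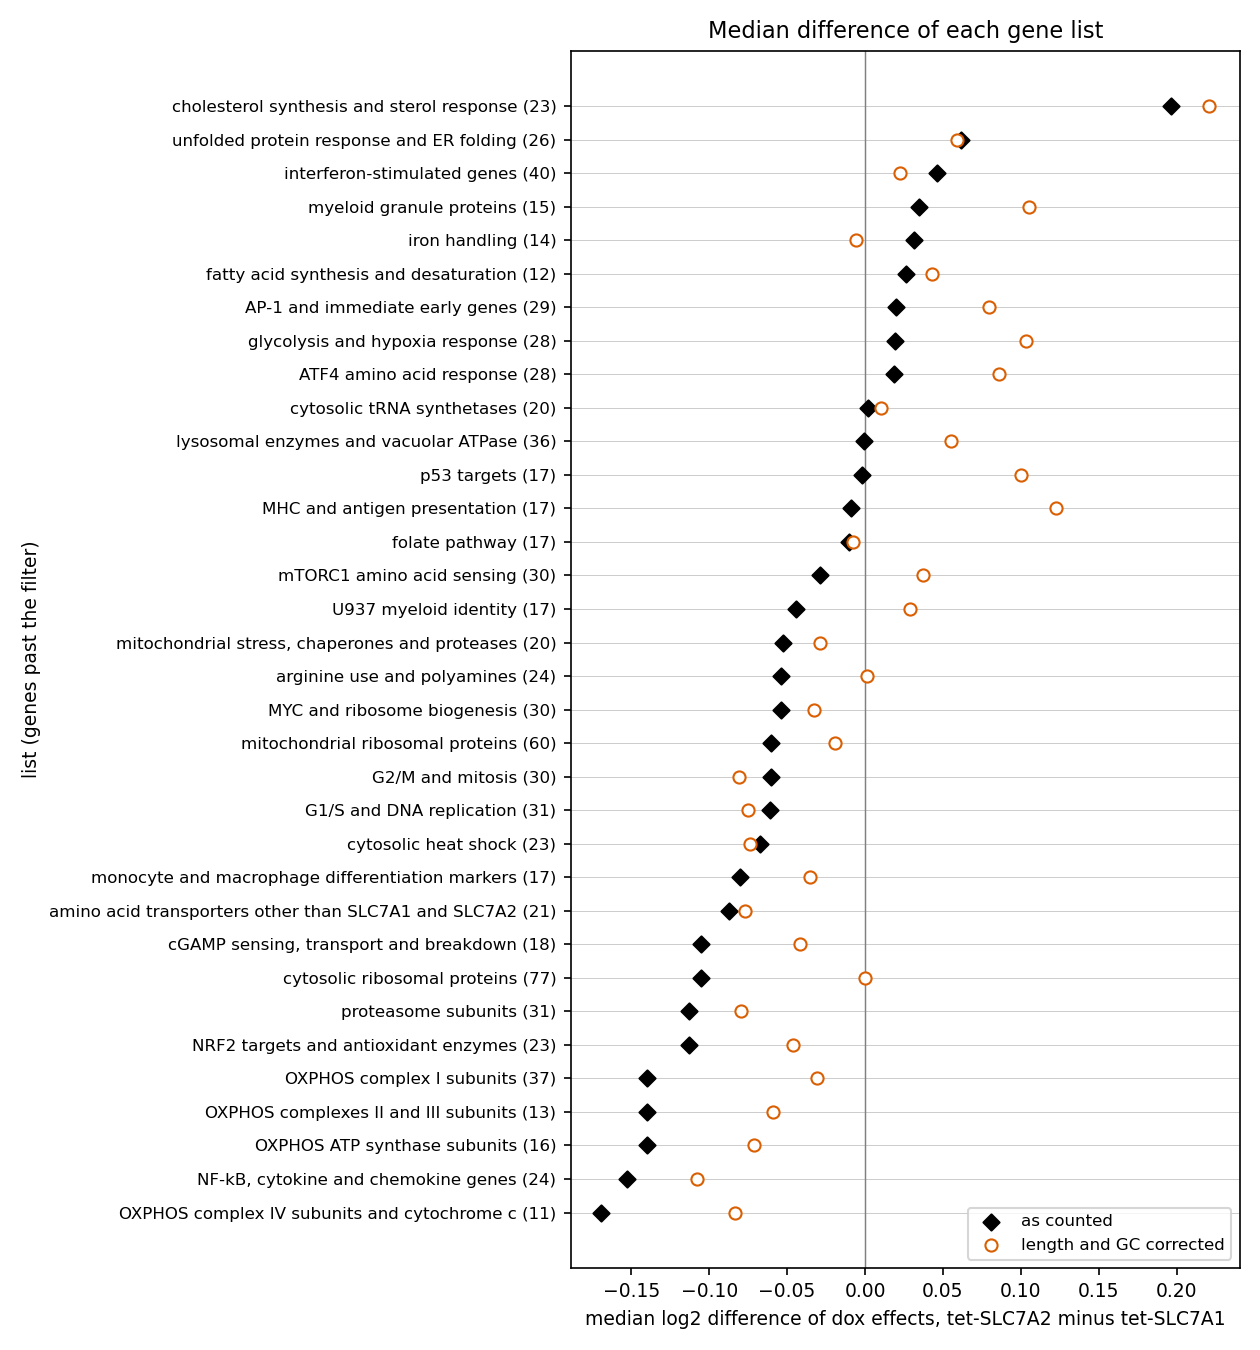
Median log2 difference of the members of 34 lists with at least 10 genes past the filter, as counted (diamonds) and with libraries corrected for transcript length and GC content (circles), with the number of genes in brackets. The sterol list stands highest, at 0.20 and 0.22, and OXPHOS, ribosomal protein and proteasome lists lie nearer to 0 with the correction.

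Genes of cholesterol synthesis and sterol uptake had the highest median, 0.20. This pathway builds cholesterol from acetyl-CoA through mevalonate, lanosterol and desmosterol, and its genes are driven together by SREBP-2 when sterol in the endoplasmic reticulum is low. Of 23 members past the filter 19 had a difference above 0, 11 were separated with tet-SLC7A2 above and 0 with it below. Set against 13.4% and 16.6% of all genes, the former is a larger share and the latter a smaller one, and no member had an adjusted p below 1. With length and GC correction the median was 0.22 and 22 of 23 lay above 0.

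The median pair effect of the list was -0.34 and -0.19 in the tet-SLC7A1 pairs 1 and 2 and -0.18 and -0.01 in the tet-SLC7A2 pairs 1 and 2. Of the 23 genes 0 and 2 had an effect above 0 in the tet-SLC7A1 pairs, 2 in tet-SLC7A2 pair 1 and 10 in tet-SLC7A2 pair 2. Nearly all sterol genes thus lay below 0 in 3 of the 4 pairs, while in tet-SLC7A2 pair 2 they lay on both sides of 0. That pair had the most construct RNA, stood apart on the first component and had the steepest slope with GC content. These cannot be told apart with 1 such pair. The median difference was 0.12 without tet-SLC7A2 pair 2 and 0.25 without pair 1, and it was 0.11 without tet-SLC7A1 pair 1 and 0.32 without pair 2.

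HMGCS1, the synthase that makes HMG-CoA, was at 20.0 and 52.2 CPM without and 13 and 33.0 CPM with dox in tet-SLC7A1, and at 50.1 and 53.2 CPM without and 36.8 and 79.3 CPM with dox in tet-SLC7A2. Its difference of 0.72 ± 0.35 was the highest of the list, but the tet-SLC7A2 pairs disagreed in direction (-0.44 and 0.57). The difference was 0.59 after correction and 0.20 without tet-SLC7A2 pair 2. IDI1, which isomerises isopentenyl diphosphate, had 0.39 ± 0.17, and 0.20 without that pair. FDPS and FDFT1, which make farnesyl diphosphate and squalene, had -0.02 ± 0.11 and 0.05 ± 0.12.

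Of the genes after squalene, CYP51A1, the lanosterol demethylase, had the highest difference among those named. It was at 67.3 and 108 CPM without and 45.0 and 79.0 CPM with dox in tet-SLC7A1, and at 104 and 103 CPM without and 94.4 and 115 CPM with dox in tet-SLC7A2. Its tet-SLC7A2 pairs disagreed in direction (-0.15 and 0.15). The difference was 0.52 ± 0.15 (unadjusted p 0.0159, DESeq2 adjusted p 0.479), 0.38 after correction and 0.37 without tet-SLC7A2 pair 2. SQLE, the squalene epoxidase, had 0.33 ± 0.18, LSS, the lanosterol synthase, 0.20 ± 0.11, MSMO1, which removes methyl groups from sterols, 0.45 ± 0.28, and SC5D, a sterol desaturase, 0.47 ± 0.22. Without tet-SLC7A2 pair 2 SQLE had 0.11, LSS 0.15, MSMO1 0.11 and SC5D 0.25, so SQLE and MSMO1 rest largely on that pair. After correction SQLE had 0.21, LSS 0.22, MSMO1 0.32 and SC5D 0.25.

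INSIG1, which holds the SREBP complex in the endoplasmic reticulum, was at 87.3 and 173 CPM without and 55.3 and 118 CPM with dox in tet-SLC7A1, and at 176 and 173 CPM without and 136 and 158 CPM with dox in tet-SLC7A2. Its 4 pair effects were all below 0, at -0.66 and -0.56 in the former and -0.37 and -0.12 in the latter, so the difference of 0.36 ± 0.13 is that between a larger and a smaller negative effect. Without tet-SLC7A2 pair 2 it was 0.24. STARD4, a sterol carrier, had 0.51 ± 0.34, but 0.037 without tet-SLC7A2 pair 2 and 1.00 without pair 1, so its value rests on the pair that stood apart.

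**Figure D5:**
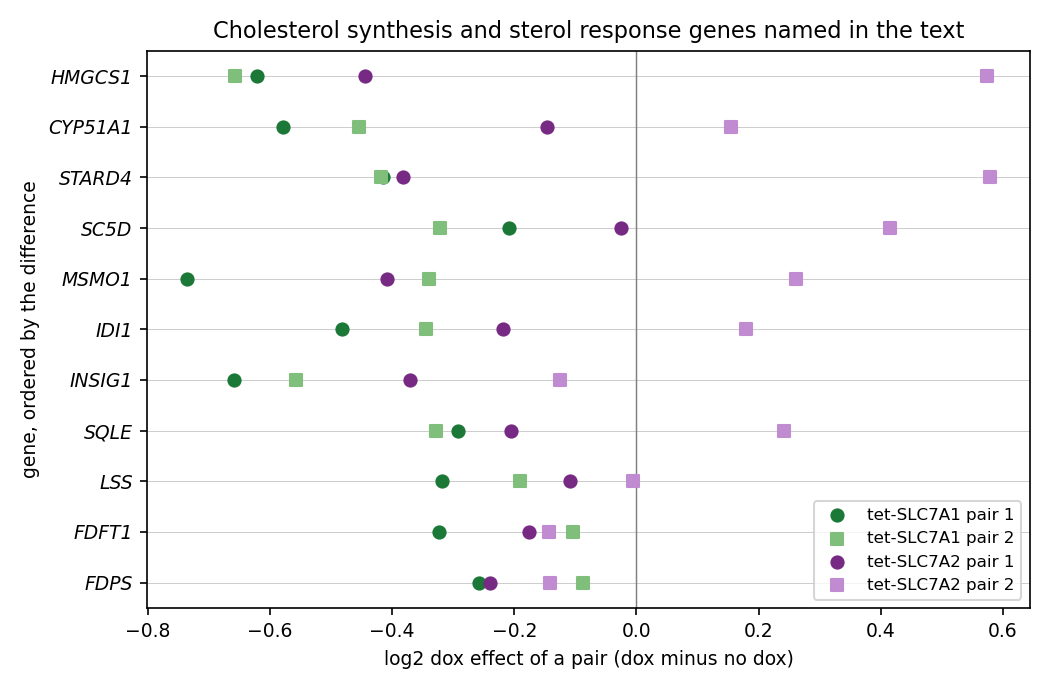
Log2 pair effects (dox minus no dox) of the 11 sterol genes whose values are given in the text, of 23 past the filter, ordered by the difference, with tet-SLC7A1 in green and tet-SLC7A2 in purple, circles for pair 1 and squares for pair 2. Both tet-SLC7A1 pairs and tet-SLC7A2 pair 1 lie below 0 for these 11, while tet-SLC7A2 pair 2 lies above 0 for 7 of them.

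The 250 bases before the RefSeq start of INSIG1 are shown because it is the sterol sensor of the list whose pair effects were separated and of the same sign. They lie at chr7:155297628-155297877 on the plus strand of GRCh38.p14, and capitals mark a match to CACNCCAC (sterol element-like, searched on both strands) at 208 bases before the start.

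INSIG1: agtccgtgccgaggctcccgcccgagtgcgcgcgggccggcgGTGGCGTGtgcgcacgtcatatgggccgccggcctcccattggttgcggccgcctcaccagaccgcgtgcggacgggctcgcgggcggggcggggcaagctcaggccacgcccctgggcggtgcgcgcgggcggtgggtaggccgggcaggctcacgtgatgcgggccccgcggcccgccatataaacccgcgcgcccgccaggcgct

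This motif is in 4.87% of 35116 windows of the same length and in 4 of the 23 windows of the sterol list, which belong to 18 genes (IDI1, INSIG1, SC5D and SREBF2). HMGCS1 and CYP51A1, with larger differences, have no match in their windows.

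NF-kB, cytokine and chemokine genes had a median of -0.15, with 4 of 24 members above 0. Of these members 1 was separated with tet-SLC7A2 above and 9 with it below, against 13.4% and 16.6% of all genes. NF-kB dimers are held in the cytoplasm by IkB proteins and, once freed, turn on cytokine, chemokine and feedback genes. After length and GC correction the median was -0.11. It was -0.07 without tet-SLC7A2 pair 2. The median pair effects were 0.01 and 0.11 in tet-SLC7A1 and -0.03 and -0.11 in tet-SLC7A2. Apart from CCL2 and NFKB1, described above, the separated members had small differences or low levels. ICAM1, the adhesion receptor of endothelial and myeloid cells, had -0.19 ± 0.13, TNFRSF1B, a TNF receptor, -0.13 ± 0.12, and TNFAIP3, the A20 feedback inhibitor, -0.22 ± 0.28. Without tet-SLC7A2 pair 2 TNFRSF1B had -0.047 and TNFAIP3 -0.076, and without tet-SLC7A2 pair 1 ICAM1 had -0.095. IER3 and CXCL8 had -1.52 ± 0.91 and -1.25 ± 1.52 at levels of 0 to 1.91 CPM. REL, the c-Rel subunit, was the member separated the other way, at 0.30 ± 0.20, and 0.11 after correction.

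NFKB1 is known to be a target of NF-kB itself. The 250 bases before its first RefSeq start, at chr4:102501109-102501358 on the plus strand, are shown because NFKB1 was the NF-kB subunit with the lowest difference. Capitals mark a match to GGGANNTTC (kB-like, searched on both strands) at 49 bases before the start.

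NFKB1: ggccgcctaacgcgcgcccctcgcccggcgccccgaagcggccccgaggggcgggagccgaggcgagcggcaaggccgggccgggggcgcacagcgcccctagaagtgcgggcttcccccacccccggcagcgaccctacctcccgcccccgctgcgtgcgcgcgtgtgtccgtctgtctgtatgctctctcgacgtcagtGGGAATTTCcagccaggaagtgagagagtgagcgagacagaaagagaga

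The motif is in 3.52% of all windows and in 12 of the 40 windows of the NF-kB list, which belong to 26 genes. NFKBIA and NFKB2 hold it too, and neither was separated. TNFAIP3 and REL also hold it, the former separated with tet-SLC7A2 below and the latter with it above. A match is a string and not a shown binding site.

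Interferon-stimulated genes had a median of 0.05, with 22 of 40 above 0, 7 separated with tet-SLC7A2 above and 3 with it below. The sign of this median turned on tet-SLC7A2 pair 2: the median pair effect was 0.38 there against 0.06 to 0.09 in the other pairs, and without that pair the median difference was -0.06. PARP9, an ADP-ribosyltransferase of the interferon response, was at 8.75 and 6.96 CPM without and 8.75 and 6.30 CPM with dox in tet-SLC7A1, and at 5.13 and 6.42 CPM without and 8.64 and 9.78 CPM with dox in tet-SLC7A2. Its difference was 0.75 ± 0.25 (unadjusted p 0.0283), and the tet-SLC7A2 pair effects were 0.74 and 0.60. USP18, the ISG15 protease, had 0.61 ± 0.27, MX1, an antiviral GTPase, 0.56 ± 0.40, IFIT1, which binds foreign RNA, 0.72 ± 0.49 (0.44 without tet-SLC7A2 pair 2), and OASL 0.81 ± 0.64. OAS1, the oligoadenylate synthetase, and IFIT5 had -0.68 ± 0.45 and -1.37 ± 0.97. The separated members thus lay on both sides of 0.

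Genes that sense, carry or break down cGAMP had a median of -0.11, with 5 of 18 above 0, 1 separated above and 6 below. It was -0.04 after correction and -0.07 without tet-SLC7A2 pair 2. STING1, the receptor of cGAMP, was at 155 and 130 CPM without and 144 and 132 CPM with dox in tet-SLC7A1, and at 125 and 130 CPM without and 120 and 122 CPM with dox in tet-SLC7A2, with a difference of -0.04 ± 0.11. TBK1, the kinase that STING recruits, had -0.17 ± 0.20.

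Lists tied to arginine and amino acid supply had medians from -0.09 to 0.02. Of the ATF4 amino acid response genes 16 of 28 had a difference above 0, with a median of 0.02 (0.09 after correction, -0.03 without tet-SLC7A2 pair 2) and 3 and 2 separated above and below. Their median pair effects were 0.22 and 0.15 in tet-SLC7A1 and 0.12 and 0.26 in tet-SLC7A2. In each pair more members lay above 0 than below, 21 to 26 of 28, against 5632 to 6152 of all 11573 genes. PHGDH, the entry enzyme of serine synthesis, had a difference of 0.03 ± 0.11, and PCK2, the mitochondrial PEP carboxykinase, 0.14 ± 0.11. TRIB3, the ATF4 feedback pseudokinase, had -0.20 ± 0.12. ASNS, the asparagine synthetase, and SLC7A11, the cystine importer, had 0.31 ± 0.24 and 0.39 ± 0.40, and both turned on tet-SLC7A2 pair 2 (0.88 and 1.06, against 0.20 and 0.15 in pair 1). Without that pair their differences were -0.03 and -0.08.

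Other amino acid transporters had a median of -0.09 (-0.08 after correction), with 6 of 21 above 0 and 0 and 3 separated above and below. Without tet-SLC7A2 pair 2 the median was -0.0044. SLC66A1, the lysosomal exporter of arginine and lysine, was at 27.5 and 23.5 CPM without and 32.2 and 28.0 CPM with dox in tet-SLC7A1, and at 30.5 and 32.8 CPM without and 29.3 and 28.2 CPM with dox in tet-SLC7A2. Its pairs were opposite, with a difference of -0.38 ± 0.14 (unadjusted p 0.0433), and -0.27 after correction. SLC7A7, a light chain of the exporter of cationic amino acids, had -0.67 ± 0.50, but -0.15 without tet-SLC7A1 pair 2 and -1.25 without tet-SLC7A1 pair 1. The other separated member was SLC7A5, a light chain of the leucine exchanger, at -0.11 ± 0.11, and -0.028 without tet-SLC7A2 pair 2. The glutamine carrier SLC1A5 had -0.05 ± 0.10.

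Genes that use arginine or make polyamines had a median of -0.05 (0.0014 after correction, 0.000775 without tet-SLC7A2 pair 2), with 8 of 24 above 0. ASS1, which makes argininosuccinate, had 0.11 ± 0.12, and ODC1, the entry enzyme of polyamine synthesis, -0.05 ± 0.11. NOS3, a nitric oxide synthase, had -1.19 ± 0.49, from 2.34 and 5.19 to 0.928 and 2.25 CPM in tet-SLC7A2, while in tet-SLC7A1 it was at 3.07 and 4.84 CPM without and 4.09 and 3.32 CPM with dox. Both tet-SLC7A2 pairs lay below 0 and the tet-SLC7A1 pairs on either side of it. ATP13A2 and ATP13A3, polyamine carriers of the endolysosome, had -0.30 ± 0.13 and 0.59 ± 0.35, and without tet-SLC7A2 pair 2 ATP13A3 had 0.14. Without tet-SLC7A1 pair 1 NOS3 had -0.72 and ASS1 0.012. Among 30 genes of mTORC1 amino acid sensing 13 lay above 0, with a median of -0.03. The median was 0.04 after correction, with 16 of 30 above 0, and 0.05 without tet-SLC7A2 pair 2. SAMTOR, the sensor of S-adenosylmethionine, had 0.79 ± 0.38 and opposite pairs, at 2.19 to 4.79 CPM, and RRAGC, a Rag GTPase, 0.20 ± 0.13.

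Mitochondrial respiration genes lay below 0 as counted and nearer to it after correction. Of 77 subunits of the 5 OXPHOS complexes and cytochrome c, 7 had a difference above 0, 0 were separated above and 24 below, with a median of -0.15. After correction the median was -0.05 and 27 of 77 lay above 0. The medians by complex were -0.14 for complex I, -0.14 for complexes II and III, -0.17 for complex IV and -0.14 for the ATP synthase as counted, and -0.03, -0.06, -0.08 and -0.07 after correction. These are short transcripts, with a median of 765 bases. The median pair effect was 0.19 in tet-SLC7A1 pair 2 and -0.06, -0.04 and -0.12 in the other pairs, so the difference rests largely on tet-SLC7A1 pair 2. Without that pair the median was -0.0029 over all 77, and 0.015 for complex I, -0.024 for complexes II and III, -0.0033 for complex IV and -0.039 for the ATP synthase. ATP5ME, a small ATP synthase subunit, had -0.45 ± 0.17 (-0.23 corrected), COX4I1, a subunit of complex IV, -0.15 ± 0.11 (0.00 corrected), and ATP5F1A, the alpha subunit, -0.08 ± 0.09 in both.

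Cytosolic ribosomal proteins, also short, had a median of -0.11, with 2 of 77 above 0, and 2e-05 with 39 of 77 above 0 after correction. All 77 had an effect above 0 in tet-SLC7A1 pair 2, against 1, 14 and 0 in tet-SLC7A1 pair 1 and tet-SLC7A2 pairs 1 and 2. Without tet-SLC7A1 pair 2 the median was 0.07. Mitochondrial ribosomal proteins had -0.06, -0.02 after correction and 0.03 without that pair. For proteasome subunits the median was -0.11 as counted and -0.08 corrected, with 3 and 5 of 31 above 0, and 16 were separated below and 0 above. Without tet-SLC7A1 pair 2 it was -0.06. PSMD2, a scaffold of the regulatory particle, had -0.23 ± 0.11, and PSMB6, a catalytic subunit, -0.24 ± 0.13, or -0.10 without that pair.

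NRF2 targets and antioxidant enzymes had a median of -0.11 (-0.05 corrected), with 5 of 23 above 0, and 0 and 8 separated above and below. MAFG, the small Maf partner of NRF2, had -0.41 ± 0.14 (unadjusted p 0.0347), from pair effects of 0.24 and 0.39 in tet-SLC7A1 and 0.04 and -0.22 in tet-SLC7A2. FTH1, the ferritin heavy chain, had -0.26 ± 0.12. Genes of the unfolded protein response had a median of 0.06 (0.06 corrected), with 18 of 26 above 0, and 8 and 5 separated above and below. The sensors ERN1 and EIF2AK3, known as IRE1 and PERK, had 0.47 ± 0.20 and 0.51 ± 0.27, and the chaperone HSPA5 0.11 ± 0.12.

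The G1/S and G2/M lists had medians of -0.06 and -0.06 (-0.07 and -0.08 corrected), with 8 of 31 and 11 of 30 above 0, and 9 members separated below and 0 above in each. Without tet-SLC7A1 pair 1 the G2/M median was 0.02. CCND3, the D-type cyclin of haematopoietic cells, had the clearest values. It was at 147 and 83.4 CPM without and 224 and 123 CPM with dox in tet-SLC7A1, and at 117 and 227 CPM without and 125 and 260 CPM with dox in tet-SLC7A2. All 4 pair effects lay above 0, at 0.60 and 0.56 in the former and 0.10 and 0.20 in the latter. The difference was -0.43 ± 0.11 (DESeq2 adjusted p 0.0946) and -0.33 after correction.

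Genes of myeloid identity and maturation were mixed. Of the 17 U937 identity genes all passed the filter and 7 had a difference above 0, with a median of -0.04. After correction 10 lay above 0, with a median of 0.03. Their summed level was 2790 to 3891 CPM in the 8 libraries. Of 17 monocyte and macrophage differentiation markers past the filter 6 lay above 0, with a median of -0.08 (-0.04 corrected). Of 15 myeloid granule protein genes 9 lay above 0, with a median of 0.03 (0.11 corrected). FCER1G, the common gamma chain of Fc receptors, was at 38.9 and 22.0 CPM without and 72.5 and 37.7 CPM with dox in tet-SLC7A1, and at 27.4 and 59.1 CPM without and 28.5 and 76.3 CPM with dox in tet-SLC7A2. All 4 pairs lay above 0 and those of tet-SLC7A1 highest, with a difference of -0.62 ± 0.16 (DESeq2 adjusted p 0.532; -0.50 corrected). S100A9, a calgranulin of monocytes, had pair effects of 0.56 and 0.48 in tet-SLC7A1 and -0.01 and 0.03 in tet-SLC7A2. Its difference was -0.52 ± 0.18, and -0.31 after correction. CX3CR1, the fractalkine receptor, had -1.01 ± 0.53, SPP1, osteopontin, 1.25 ± 0.63 (0.69 without tet-SLC7A2 pair 2), and MPO, myeloperoxidase, -1.13 ± 0.82, all at 5 CPM or less. CSF1R, the receptor of M-CSF, was at 1.80 and 0.870 CPM without and 0.729 and 0.338 CPM with dox in tet-SLC7A1. In tet-SLC7A2 it was at 0.228 and 0 CPM without and 0.522 and 0.512 CPM with dox. With a library at 0, its fitted difference, given further below, is not a reliable fold. CIITA, the activator of MHC class II genes, was at 3.94 and 2.99 CPM without and 1.29 and 1.01 CPM with dox in tet-SLC7A1, and at 2.74 and 2.46 CPM without and 2.44 and 2.61 CPM with dox in tet-SLC7A2. Its pair effects were -1.53 and -1.46 in tet-SLC7A1 and -0.16 and 0.08 in tet-SLC7A2, with a difference of 1.54 ± 0.45 as counted and 1.54 corrected (DESeq2 adjusted p 1).

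Markers of B, erythroid and epithelial cells were low, and matrix genes stood out in 1 library. The 16 fibroblast and matrix markers summed to 123 CPM in the tet-SLC7A2 no dox library 2 and to 16.4 to 29.4 CPM in the other 7. COL1A1 was at 2.66 and 2.23 CPM without and 3.31 and 1.97 CPM with dox in tet-SLC7A1, and at 4.90 and 24.5 CPM without and 1.39 and 2.87 CPM with dox in tet-SLC7A2. The differences of COL1A1 (-2.58 ± 0.53), COL3A1 (-3.49 ± 1.11), SPARC (-3.56 ± 1.06) and FN1 (-2.63 ± 1.03) thus include that library, and without tet-SLC7A2 pair 2 they were -1.88, -1.91, -2.14 and -1.365. That library also had the highest CCL2 level, 58.8 CPM. Without tet-SLC7A2 pair 2 the CCL2 difference, -1.24, and those of these matrix genes all stayed below 0. The part of matrix-expressing cells in the CCL2 difference was not tested. T and NK cell markers were not low as a sum, at 247.9 to 319.5 CPM in the 8 libraries. The files held 12 of the 16 genes, 8 of them with no more than 3 counts in any library, and 3 passed the filter. CD3E, CD3G and TRAC were not listed. B cell, erythroid and epithelial markers summed to 27.1 to 32.6, 7.38 to 12.5 and 5.41 to 9.16 CPM.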

How the data were processed

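Poly(A) RNA of 8 libraries was sequenced in paired reads of 150 bases, per the labels' protocols. The authors deposited for each library an expected count per gene, made with RSEM per the file headers, together with TPM and FPKM. The deposited TPM, scaled to gene length and depth by the authors, was used for 1 alternative, and the deposited FPKM was not used. The submitters' processing notes list hg38, RSEM 1.3.1, DESeq2 1.4.5, HISAT and Bowtie2 2.3.4.3 without their roles. The sources used here do not give whether counting used strand, and values of overlapping or antisense genes are therefore uncertain.

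A gene absent from a file was taken as 0 and expected counts were rounded. Genes were kept by filterByExpr (minimum count 10, total 15), which left 17503 entries: 11573 Entrez genes, 5927 assembled loci and 3 construct entries. The assembled loci held 6.56% to 7.25% of the counts. Of the Entrez genes 11567 matched a symbol. As the main test, edgeR 4.0.16 (R 4.3.3) gave quasi-likelihood F tests with TMM scaling, a mean for each pair, a dox effect in each line and Benjamini-Hochberg adjustment at 0.05 over all entries. The SE is the absolute difference over the square root of F. Pair effects are differences of log2 CPM with a prior count of 2. Same-numbered libraries deviated together: their deviations from group means had r = 0.57 in tet-SLC7A1 and 0.69 in tet-SLC7A2 over genes at level 3 or more. The pairing is named in the definition of the comparison, and the labels say no more of what a number stands for. The scripts were tested on simulated data.

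DESeq2 1.42.0, voom of limma 3.58.1, other scaling and filters, fits without pairs and fits without each pair or library were alternatives. Corrections of each library for transcript length and GC content (splines with 3 inner knots, GC from GENCODE transcripts, known for 99.5% of genes) were added after seeing the data. The members, gene lists and rules were chosen with earlier results of these data known. Named were the transporters and SLC19A1, genes called by edgeR or DESeq2, 12 separated genes with the highest and 12 with the lowest difference at level 3 or more, 8 opposite genes in each direction, and for each list up to 2 members with the highest level and those with the highest and lowest difference. Other list members named were chosen after their values were seen. Promoter sequences are those of RefSeq, GRCh38.p14. The floor reflects counting error alone, and the labels' protocols name no molecular identifiers. Some members counted in the lists are not reported here by name.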

Additional observations from a re-analysis of the deposited data

Results flagged for a closer look

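The genes below were marked because every pair of one line lay above 0 and every pair of the other below it, among the genes named above. In the edgeR fit with pairs, the test of the difference itself gave each an adjusted p of 1. With tet-SLC7A2 above and below, 3.79% and 5.69% of all genes at level 3 or more had this pattern. Over all 11573 genes 527 and 620 had it. A part of the genes below were named because they were separated or opposite, so these shares do not measure this set.

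With tet-SLC7A2 above, the called gene IFT80 had a difference of 4.24. Among the separated and opposite genes POLQ had 1.79, GNA13 1.50, PTPRJ 1.43, SWAP70 1.20, SDK1 1.12, ATRX 1.09, INVS 1.06, ACAD11 0.77, GOLGA1 0.69 and TTLL3 0.64. Among list members OASL had 0.81, SAMTOR 0.79, PARP9 0.75, IFIT1 0.72, USP18 0.61, ERN1 0.47 and RRAGC 0.20. CSF1R had a fitted 3.72 at levels under 2 CPM, with a library at 0, so that value is not a reliable fold. For CSF1R it was 2.49 without tet-SLC7A2 pair 2, 7.57 without tet-SLC7A2 pair 1 and 0.46 with log2(TPM + 1).

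With tet-SLC7A2 below, the called gene TESMIN had -6.40. DCAF8 had -1.41, which rests on a single library. CCL2 had -1.30, NFKB1 -1.11, PDPK1 -0.98, CAPN15 -0.77, TRAPPC14 -0.75, NAB2 -0.48, CAMSAP1 -0.46 and HYLS1 -0.38. Among list members SPARC had -3.56 and COL3A1 -3.49, both with their highest level in the tet-SLC7A2 no dox library 2. IFIT5 had -1.37 and MPO -1.13, but -0.18 and -0.26 with log2(TPM + 1). ATP5ME had -0.45, SLC66A1 -0.38, PSMD2 -0.23, ICAM1 -0.19 and ATP5F1A -0.0773, the last smaller than its SE.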

How the results depend on the processing

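The count of calls was 0 in edgeR with the replicate block and 0 without it (519 and 222 entries with an unadjusted p under 0.05), 0 with RLE scaling, without a filter, with Entrez genes alone, with limma voom and with both corrections. DESeq2 called 21 entries with the replicate block and 20 without it, and a fit restricted to a mean log2 CPM of at least 3 called 1, an assembled locus with a negative difference. The cause was not tested. Leaving out 1 pair gave 0 to 0 calls with 615 to 1148 entries at an unadjusted p under 0.05, and leaving out 1 library without the block gave 0 to 0 calls with 259 to 478. With 2 pairs per line the median SE of a difference was 0.16 at level 3 or more, 0.24 at levels 3 to 4 and 0.12 at 7 or more. Differences smaller than these could not be told from 0. Larger ones did not pass either in edgeR with pairs after adjustment over 17503 entries, so an SE is no limit of detection.

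Of 1121 alternative values for the named genes, 19 had the other sign. Over the fits that leave out 1 pair each, the values ran from -0.248 to 0.150 for SLC19A1, -0.0567 to 0.160 for FDFT1, -0.104 to 0.0638 for FDPS, -0.0342 to 0.0978 for PHGDH, -0.0304 to 0.645 for ASNS, -0.0845 to 0.828 for SLC7A11, -0.139 to 0.0266 for ODC1 and -0.106 to 0.0254 for STING1. The other sign came without tet-SLC7A2 pair 2 for SLC19A1, PHGDH, ASNS and SLC7A11, without tet-SLC7A2 pair 1 for FDPS, without tet-SLC7A1 pair 2 for SLC19A1, FDPS, ODC1 and STING1, and without tet-SLC7A1 pair 1 for FDFT1. With log2(TPM + 1) FDPS had 0.0478, ODC1 0.0107 and STING1 0.0259. The length correction gave FDPS 0.0646, and the length and GC correction gave SLC19A1 0.000761, FDPS 0.0982, SLC1A5 0.0297, COX4I1 0.00367 and STING1 0.0553.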
